A study of Gasterosteus aculeatus with 29 samples.

Results

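The comparison described here is that between 7 three-spined sticklebacks that had met predation risk themselves and 8 that had not, where the fathers of all 15 fish had been exposed to predation risk. The 15 fish are the members of both groups with an exposed father, out of 29 brain libraries in the series. They were chosen from the labels for the father's and the fish's own experience, with no use of expression values. The question is whether a young fish's own encounter with risk was visible in its brain transcriptome when its father had already met risk.

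In the whole experiment, 5 fathers met predation risk during brood care and 5 other fathers did not, and offspring of each family were themselves exposed as juveniles or left unexposed. Poly-A RNA of whole brains was sequenced in single-end reads, 1 library per fish. The group called both here holds 7 fish with an exposed father that were exposed as juveniles. The group called paternal only holds 8 fish with an exposed father and no exposure of their own. All 15 therefore share the father's exposure, and what differs is the fish's own. The 7 exposed fish came from 4 fathers, with 2 each from M11, M15 and M43 and 1 from M42. The 8 unexposed fish came from 5 fathers, with 2 each from M9, M11 and M42 and 1 each from M15 and M43. Exposed and unexposed offspring of the same father can thus be set against each other in 4 families, and M9 has unexposed fish alone. The labels' protocol states 9 fish for the unexposed group, of which 8 are analysed here. The age of the fish, the cue used as predation risk and the strain are not given in the sources used here.

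In this species the father alone builds the nest, fans the eggs and guards the fry, so a father's behaviour is part of the early environment of the young. Predation risk is known to act on fish brains through fast neural activity and through the stress axis, in which the hypothalamus and pituitary drive cortisol release. A whole-brain extract averages over all regions and cell types, so fewer cells of a type and less RNA per cell cannot be told apart, and a change limited to a small nucleus is diluted by the rest of the tissue.

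The genes carry Ensembl stickleback identifiers, and 0 of 17730 identifiers matched the reference table used for names. Genes are therefore given by identifier, without symbol, role, position or sequence, and brain and stress-axis markers were not checked.

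Reads counted to genes ranged from 2244609 to 55155451 per fish, with a median of 8297168. The exposed fish had a median of 13815032 reads and the unexposed fish 5291187, with overlapping ranges. Some libraries need naming before the results. Both replicate 7, an offspring of M11, is labelled male but expressed as a female: ENSGACG00000012640 lay between 4.74 and 5.26 log2 CPM, the log2 of a gene's reads scaled to library size, in the 5 other fish labelled male, between 1.71 and 2.93 in the females, and at 2.49 in this fish. The fish was entered as female, which gives 5 females and 2 males among the exposed fish and 5 females and 3 males among the unexposed. ENSGACG00000012640 was picked from the sex comparison made with that entry in place, so it is not an independent check of it. Both replicate 3, a male of M15, had the widest spread of relative log expression of the 15 fish (0.451). The next was both replicate 2 at 0.398, and the lowest value was 0.254. Neither replicate 3, an offspring of an unexposed father, had a spread of 1.59. It enters the comparison with other families, the gene filter and alternatives over all 29 libraries, but not the fit of the 15 fish.

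No gene passed the test for own exposure. Levels were compared in limma with father as a block and sex as a covariate, over 16660 genes with Benjamini-Hochberg adjustment, and 0 genes (0%) had an adjusted p under 0.05. The smallest adjusted p was 0.984. Before adjustment, 737 genes (4.42%) had a p under 0.05, of which 339 (2.03%) were higher and 398 (2.39%) lower in the exposed fish, where 833 genes is the number that corresponds to 5% of those tested. A p under 0.01 was reached by 128 genes (0.768%), 46 higher and 82 lower. The same linear fit on weighted log2 values of the reads recovered from the table, limma-voom, also called 0 genes, with a smallest adjusted p of 0.397. There were 0 genes (0%) for which the 7 exposed and the 8 unexposed fish did not overlap, and 0 genes had reads in one group and none in the whole of the other.

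**Figure D1:**
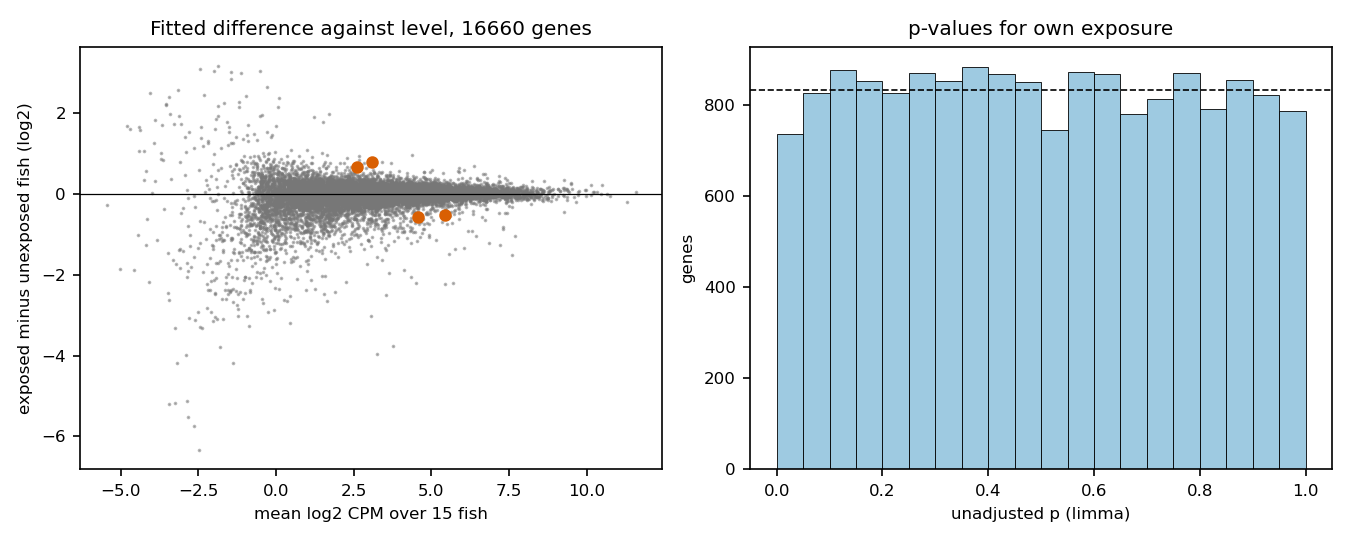
The left panel plots the fitted difference in log2 CPM, exposed minus unexposed offspring of exposed fathers, against mean log2 CPM for each tested gene. The right panel is a histogram of the unadjusted limma p-values, with a dashed line at 833, the number of genes per bin for an even spread: the first bin holds 737 genes.

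The measurement was precise enough to bound most genes. The 95% confidence interval of the difference lay within 1.5-fold in either direction for 11628 of the 16660 genes (69.8%), and within 2-fold for 14352 (86.1%). Precision followed the level. Among the 3560 genes with a mean of at least 5 log2 CPM, 94.4% had an interval within 1.5-fold. Among the 2330 genes below 1 log2 CPM, with a median of 20 reads per fish, this held for 3.56%. The median half-width of the interval there was 1.80-fold, and 37.6% of these genes had an interval within 2-fold.

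The differences that did occur were unevenly directed. Among 14330 genes with a mean of at least 1 log2 CPM, 49 (0.342%) were fitted more than 1.5-fold higher in the exposed fish and 351 (2.45%) more than 1.5-fold lower. Past 2-fold, 4 (0.0279%) were higher and 100 (0.698%) lower, while the median difference over tested genes was 0.01 log2. None of these genes passed the test. The size of the imbalance moved with the model: 7 higher and 50 lower past 2-fold with father as a random block, and 61 higher and 248 lower without paternal only replicate 3. The 100 lower genes were not evenly high over the unexposed fish. Paternal only replicate 3, the lone unexposed fish of M15, was the highest of all 15 fish for 40 of them, with a median of 1.80 log2 above the 15-fish median. Paternal only replicate 6, of M42, was highest for 17, and paternal only replicate 4, the lone unexposed fish of M43, for 16. The medians of single fish over these genes ran from -0.57 to 1.80 in the unexposed group and from -0.96 to 0.85 in the exposed group, and so overlapped. These 100 genes were selected on the difference itself, and the values describe them without a test.

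The genes with the smallest p-values in each direction show what the data look like at their most different. ENSGACG00000006719, which was higher in the exposed fish, lay in the exposed fish at 2.39 and 2.46 log2 CPM in M11, 2.87 and 3.37 in M15, 2.97 in M42, and 3.05 and 2.50 in M43. In the unexposed fish it lay at 2.31 and 2.44 in M11, 1.95 in M15, 2.69 and 2.52 in M42, 1.87 in M43, and 2.62 and 2.96 in M9. The groups overlapped. As measured, the gap was 1.17 in M15, 0.91 in M43, 0.37 in M42 and 0.05 in M11. The exposed fish of M15 were males set against a female and those of M11 females set against males, and with the sex term of the fit removed the gaps were 0.68, 0.91, 0.61 and 0.54 in the same order. Sex and own exposure were estimated together from these families, so that adjustment draws M11 and M15 towards each other, here and for the genes that follow. The fitted difference was 0.67 ± 0.15 (SE), or 1.59-fold, with a limma p of 0.000643 and an adjusted p of 0.984.

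ENSGACG00000015516 had a mean of 3.36 ± 0.61 log2 CPM in the exposed fish (SD, n = 7; lowest 2.70, median 3.20, highest 4.20) and 2.84 ± 0.38 in the unexposed (SD, n = 8; lowest 2.17, median 2.90, highest 3.28). Its highest values, 4.20 and 4.17, were the 2 exposed males of M15, and its lowest, 2.17, was the unexposed female of that father. The differences by father as measured were 2.02 in M15, 0.35 in M11, 0.27 in M42 and 0.09 in M43. With the sex term removed they were 1.32, 1.05, 0.62 and 0.09 in the same order. The fitted difference was 0.80 ± 0.18 (limma p 0.00079, adjusted p 0.984), and it was 0.31 without paternal only replicate 3, which leaves M15 with no unexposed fish.

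ENSGACG00000013300 was lower in the exposed fish of every family that can be compared. Exposed fish had 4.07 and 4.13 log2 CPM in M11 against 4.56 and 4.88 in unexposed fish of that father, and 3.85 and 3.85 in M15 against 4.66. In M42 the exposed fish had 4.48 against 4.68 and 5.16, and in M43 the exposed fish had 5.00 and 4.86 against 5.15. Across families the groups overlapped, since both exposed fish of M43 lay above 1 of the 2 unexposed fish of M11. The fitted difference was -0.57 ± 0.11, or 0.674-fold, with a 95% interval from -0.80 to -0.34 (limma p 0.000165, adjusted p 0.984). It rests on 80 to 2643 reads per fish.

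ENSGACG00000011652 lay between 4.56 and 6.09 log2 CPM in the exposed fish and between 5.05 and 6.23 in the unexposed. As measured, the differences by father were -1.15 in M15, -0.38 in M43, -0.14 in M11 and 0.0013 in M42. With the sex term removed they were -0.53, -0.38, -0.76 and -0.31 in the same order, lower in all 4. Its fitted difference was -0.53 ± 0.12 (limma p 0.000919, adjusted p 0.984). This gene also fell by 0.62 ± 0.14 log2 in males relative to females (limma adjusted p 0.0339), the direction in which the measured gap of M15 is widened and those of M11 and M42 are narrowed by the sexes of their fish.

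**Figure D2:**
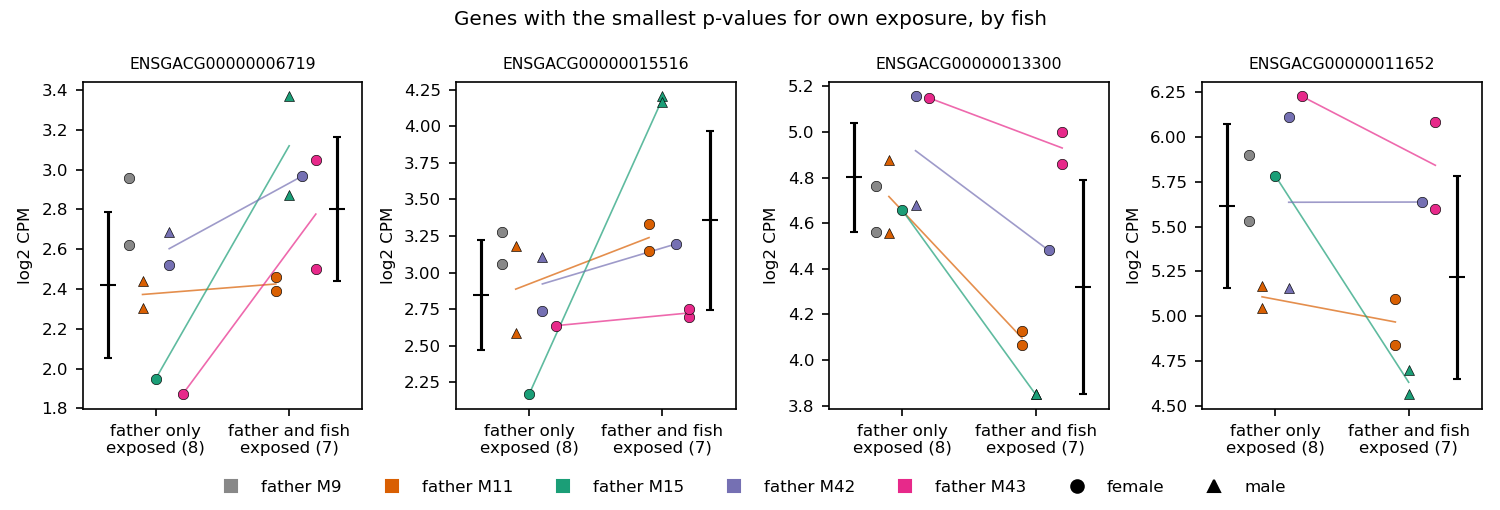
Each panel plots the log2 CPM of 1 of these 4 genes in the 15 fish, with exposed fish (both) beside unexposed fish (paternal only); colour marks the father, circles females, triangles males, coloured lines join the means of each father and black bars are group mean ± SD. The groups overlap in all 4 panels, and the lines of the 4 fathers with both conditions slope the same way for each gene but ENSGACG00000011652, for which that of M42 is level.

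Within families, sex and own exposure were partly tied. The exposed fish of M15 were 2 males and the unexposed fish a female, the exposed fish of M11 expressed as females and the unexposed were males, and the fish of M43 were all female. In the 15 fish, sex called 354 genes (2.12%), of which 23 (0.138%) were higher and 331 (1.99%) lower in males, and 1864 (11.2%) had an unadjusted p under 0.05. ENSGACG00000012640 was 2.53 ± 0.22 log2 higher in males (limma adjusted p 5.87e-05), without overlap of the sexes as entered. ENSGACG00000013963 was higher in males by 4.15 ± 0.69 (limma adjusted p 0.00473), and females reached 3.24, below the lowest male at 4.13. ENSGACG00000009450 was lower in males by 2.01 ± 0.34 (difference -2.01, limma adjusted p 0.00572). ENSGACG00000010145 was also lower in males of the 15 fish (difference -2.13 ± 0.40, limma adjusted p 0.0123). The low values were those of the 3 unexposed males, at 2.19 to 2.37 log2 CPM. The 2 males of M15 had 4.50 and 5.36, above the 3.08 to 3.54 of the females of M43. In offspring of unexposed fathers the sexes overlapped, with males at 4.38 to 6.66 and females at 2.48 to 6.43. The test over fathers did not pass for this gene (limma adjusted p 0.0733).

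Own exposure took a smaller median share of the variance than sex, the other term with 1 degree of freedom. Over the abundant genes it accounted for a median of 2.72% of the variance with 1 degree of freedom, against 4.71% for sex. Father accounted for 32.9% with 4 degrees of freedom, and the remaining spread between fish for 48.9% with 8 degrees of freedom. The mean shares were 5.73% for own exposure, 9.83% for sex, 34.7% for father and 48.4% for the remaining spread. Terms with unlike degrees of freedom cannot be ranked from these medians. A term without any effect also takes a share, so these shares do not measure an effect above the spread between fish. The test over fathers called 110 genes (0.66%) in limma, and 2359 (14.2%) had an unadjusted p under 0.05.

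**Figure D3:**
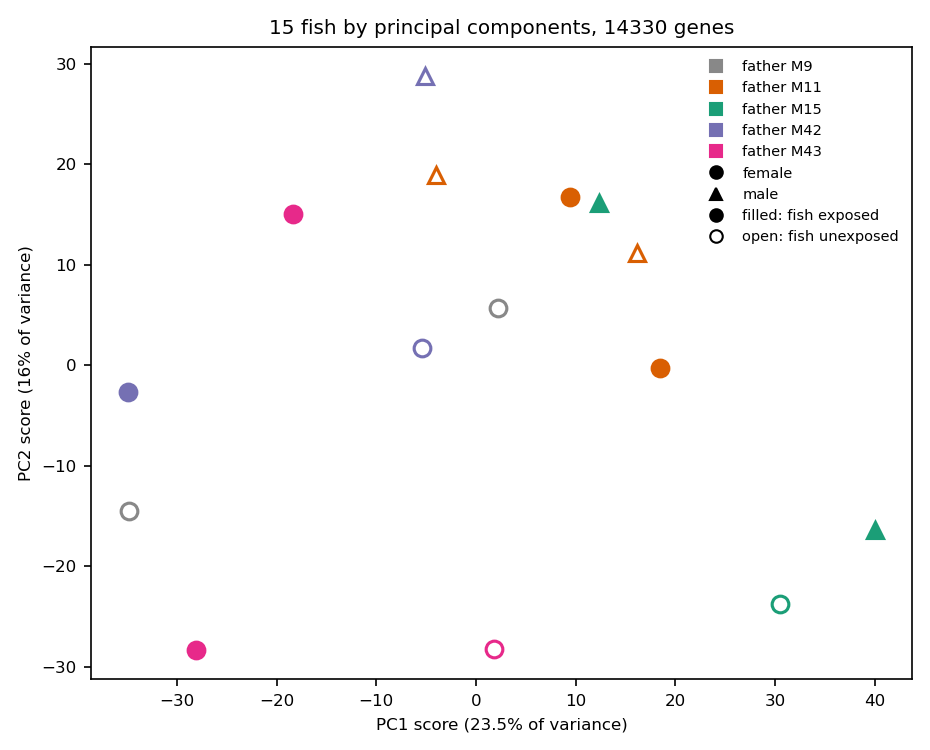
Principal components of the 15 fish over 14330 genes, component 1 (23.5% of variance) on the x axis and component 2 (16.0%) on the y axis; colour marks the father, shape the sex, and filled symbols the fish exposed themselves. Filled and open symbols are intermixed on both axes.

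Summaries of the libraries were compared by two-sided permutation over the fish, which takes no account of father. The exact permutation tests gave p = 0.977 for the first principal component, 0.998 for the second and 0.437 for the third. They also gave 0.248 for reads on the log2 scale and 0.300 for the spread of relative log expression, with adjusted p-values from 0.728 to 0.998 over these 5 measures. Pairs of fish of the same father had about the same median distance whether their own exposure differed or not. The interquartile range of gene differences had a median of 0.425 log2 (0.320 to 0.522) over 10 pairs that differed in exposure. Over 6 pairs that did not differ, the median was 0.421 (0.413 to 0.451). Most of the 10 pairs also differed in sex, and most of the 6 did not. Between fathers the median was 0.464 over 46 pairs that differed in exposure and 0.454 over 43 pairs that did not. The pairs share fish, so these values are descriptive.

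How alike the 4 families were depended on the treatment of sex. Across the 14330 abundant genes, the difference between exposed and unexposed fish of a father correlated with that of another father at r = 0.356 for M15 and M43, 0.101 for M42 and M43 and 0.058 for M11 and M42. The other 3 pairs gave -0.124, -0.146 and -0.181. These are correlations across genes, which are not independent replicates. A sex difference was then estimated in offspring of unexposed fathers, without neither replicate 3, where sex and own exposure were also partly tied. After it was taken from the males, r was 0.278 for M15 and M43 and between -0.138 and 0.144 for the other 5 pairs. That of M11 and M15, whose sexes are opposed, went from -0.146 to -0.049. With the sex term of the 15-fish fit removed it was 0.678 for M11 and M15, which that fit draws together, and between -0.041 and 0.248 for the other 5 pairs. In both M15 and M43 the exposed fish were sequenced on lanes 4 and 5 and the single unexposed fish on lane 6, so own exposure and lane cannot be told apart within them. As measured, all 4 differences were above 0 for 735 genes (5.13%) and below 0 for 606 (4.23%). By at least 1.5-fold in each family, 1 gene (0.007%) was higher and 15 (0.105%) were lower. With the sex term of the fit removed, the counts were 1452 (10.1%) and 1169 (8.16%) for the sign alone. At 1.5-fold they were 4 (0.028%) and 43 (0.300%). That removal draws M11 and M15 together, so these counts are not independent of the fit. The share to be found without a common effect was not computed.

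**Figure D4:**
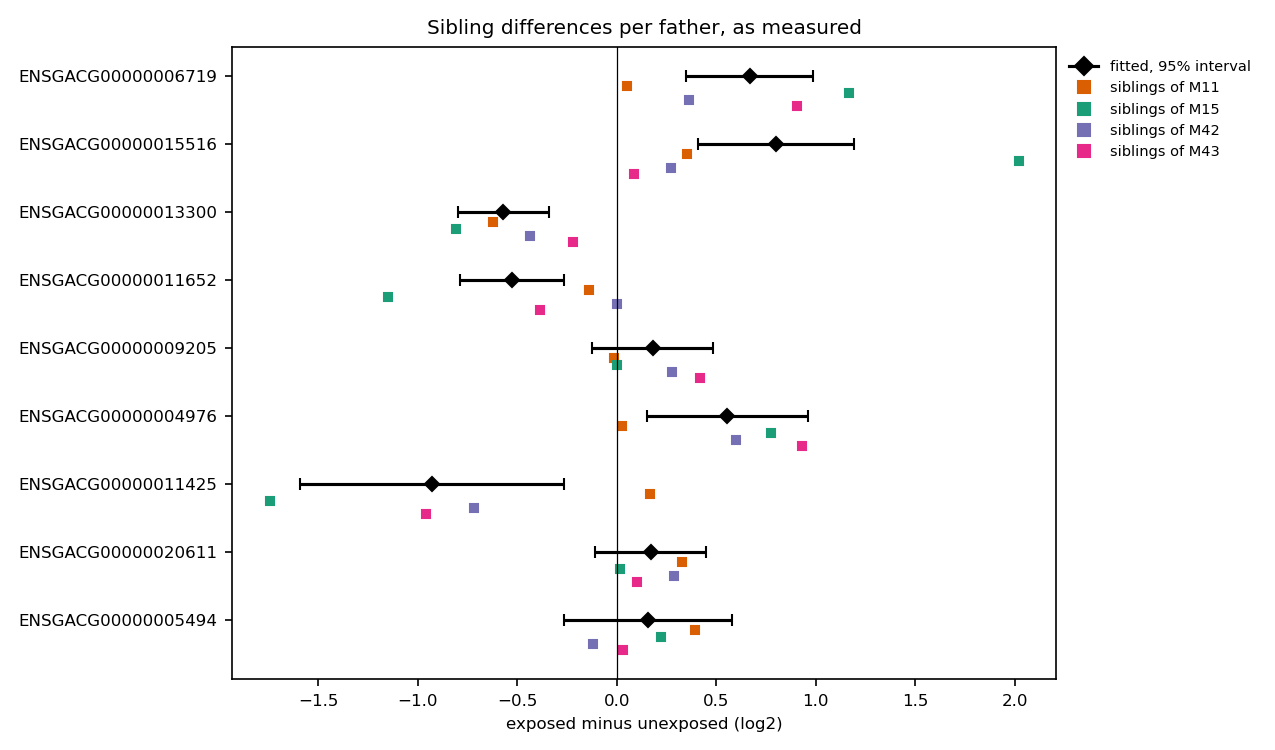
For 9 of the named genes, the fitted difference in log2 CPM between exposed and unexposed offspring of exposed fathers with its 95% confidence interval, beside the difference as measured in each of the 4 fathers with both conditions. The fitted values are adjusted for sex and the points of single fathers are not. For ENSGACG00000015516 the points run from 0.09 to 2.02, and from 0.09 to 1.32 with the sex term removed. Sex and own exposure are tied in M11 and M15, so their parts in the scatter cannot be told apart.

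The genes with the largest minimum difference in a common direction over the 4 families, with the sex term removed, were thinly counted ones. ENSGACG00000017900 had 0 to 374 reads per fish. It had 0 reads in the lone unexposed fish of M15 and of M43, and its highest count was in an unexposed fish of M9, which has no exposed fish to be set against. ENSGACG00000011331 had 0 to 85 reads. It was at 0 reads in both exposed fish of M11 and in 1 each of M15 and M43, and at 81, 46 and 44 reads in unexposed females of M15, M42 and M43. An unexposed female of M9 also had 0 reads. Neither passed the test (adjusted p 0.984 in limma), and no fold is given because it depends on the value added to 0 counts.

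Own exposure was compared also among the 5 exposed and 5 unexposed females, with father as a random block. Only M42 and M43 had females of both conditions, so the comparison was largely between families. It differs from the fit of all 15 fish in the block as well as in the fish. There were 0 genes called in limma (0%), with a smallest adjusted p of 0.801. Before adjustment, 649 genes (3.9%) were under 0.05, 264 (1.58%) higher and 385 (2.31%) lower. The genes named for females had the smallest p-values there, so the separation of their female groups was part of their choice. How many of all genes separate the female groups in this way was not counted. ENSGACG00000009205 lay between 3.26 and 3.43 log2 CPM in the exposed females and between 2.71 and 2.93 in the unexposed, without overlap. Its difference in females was 0.54 ± 0.10 (limma adjusted p 0.801), against 0.18 ± 0.14 in all 15 fish, where the unexposed males of M11 had 3.54 and 3.20. ENSGACG00000004976 lay between 2.66 and 3.10 in exposed and between 1.60 and 2.37 in unexposed females, and its difference in all fish was 0.56 ± 0.19 (limma adjusted p 0.984). The male groups overlapped for this gene, at 2.12 to 2.62 in exposed and 1.81 to 3.00 in unexposed males.

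ENSGACG00000002143 varied widely between fish. It had 1.45 and 0.56 log2 CPM in the exposed females of M11, 0.04 in that of M42, and 2.88 and -0.28 in those of M43. The unexposed females had 5.80 in M15, 6.35 in M42, 3.07 in M43, and 5.05 and 6.01 in M9. The female groups, on which this gene was chosen, did not overlap, with the closest values at 2.88 and 3.07 in fish of a single father. The male groups overlapped, at 4.31 and 2.40 in the exposed males of M15, and 5.28, 4.12 and -1.01 in the unexposed males. The difference was -4.27 ± 0.71 in females (limma adjusted p 0.801) and -3.01 ± 1.01 in all fish (limma adjusted p 0.984). ENSGACG00000011425 was lower by 1.14 ± 0.21 in exposed females (difference -1.14, limma adjusted p 0.801), with 3.33 to 4.45 against 4.73 to 5.34. Its male groups overlapped, at 2.69 to 4.50 in exposed and 3.23 to 4.22 in unexposed males. In all fish its difference was -0.93 ± 0.30 (limma adjusted p 0.984). The 5 exposed and the 5 unexposed females do not come from the same fathers in equal numbers, since exposed females include 2 of M11 and unexposed females 2 of M9.

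One fish decided the count of calls. Without both replicate 3, 5 genes (0.03%) passed the test in limma, all lower in the exposed fish. They were chosen for naming after their values were seen. ENSGACG00000003794 went from -0.37 ± 0.22 in all fish to -0.62 ± 0.08 without it, with an adjusted p of 0.0304. It lay at 8.13 log2 CPM in both replicate 3, at 6.18 to 6.71 in the other exposed fish, and at 7.86 in the unexposed fish of the same father. ENSGACG00000008514 went from -1.32 ± 0.34 to -1.65 ± 0.21, ENSGACG00000010132 from -1.31 ± 0.37 to -1.68 ± 0.21, ENSGACG00000014069 from -0.85 ± 0.23 to -1.08 ± 0.13 and ENSGACG00000017166 from -2.62 ± 0.47 to -2.97 ± 0.40, with adjusted p-values from 0.0304 to 0.0437. For each of the 5 genes both replicate 3 was the highest exposed fish. Paternal only replicate 3, of the same father, was high too: 4.07 for ENSGACG00000008514, 3.49 for ENSGACG00000010132, 4.50 for ENSGACG00000014069 and 5.09 for ENSGACG00000017166. In M11 the difference as measured was 0.14 for ENSGACG00000003794, and -0.69, -0.15, -0.03 and -0.15 for the others in the order named. With the sex term of the 15-fish fit removed, the M11 values were -0.26, -1.43, -1.32, -0.71 and -2.84 in that order. In M15, M42 and M43 the measured differences were below 0 for all 5 genes. Without both replicate 3, the remaining exposed male of M15, on lane 4, is set against a female on lane 6.

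**Figure D5:**
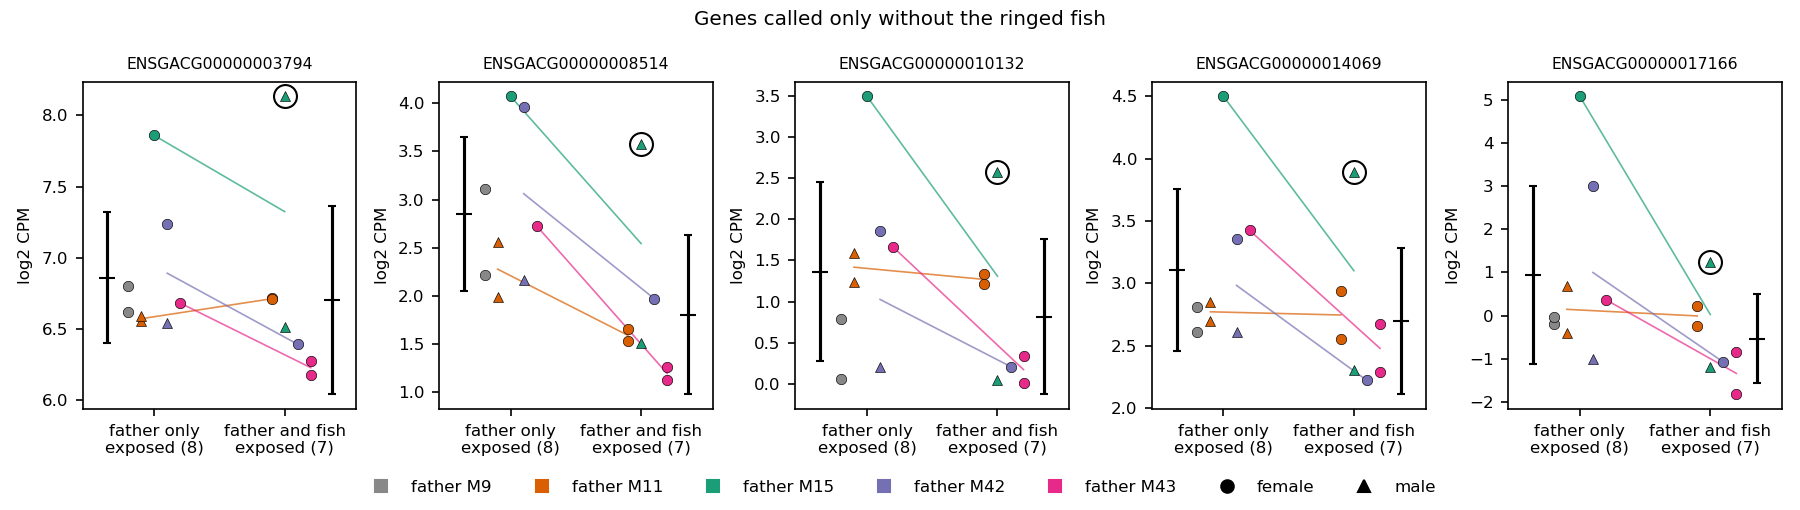
Log2 CPM in the 15 fish of the genes called only when both replicate 3 was left out, with symbols, colours and bars as in the plot of the 4 leading genes. Both replicate 3, a male of M15, is the highest exposed fish in each panel, as at 8.13 for ENSGACG00000003794.

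The effect of own exposure was then set against that in offspring of unexposed fathers, the 14 other libraries. Among these, M31 and M41 had exposed fish alone, so with father as a block only M20, M8 and M33 bear on that effect. In M20 exposed males were set against an unexposed female, and in M8 exposed females against unexposed males, so sex and own exposure were tied there too. The test of the difference between both effects called 0 genes (0%), with a smallest adjusted p of 0.487 in limma. Unadjusted, 1557 genes (9.35%) were under 0.05, 870 (5.22%) higher and 687 (4.12%) lower, but 632 without neither replicate 3. In the other families own exposure itself called 0 genes (0%), and 868 (5.21%) were under 0.05 before adjustment. Without neither replicate 3 it also called 0, and 666 (4%) were under 0.05. The effects in both kinds of family correlated at r = -0.021 across the abundant genes, and at 0.039 without neither replicate 3. Of the 737 genes with the smallest p-values in offspring of exposed fathers, 285 (38.7%) had the same sign in the other families, and 321 (43.6%) without neither replicate 3. Over all abundant genes the share was 48.5%, and 50.4% without that library. The 2 sets differ in level, since 171 of the 737 genes lay below 1 log2 CPM and so outside the abundant genes. The share over all tested genes was not computed.

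ENSGACG00000001007 and ENSGACG00000010950 had small p-values in that test. For ENSGACG00000001007 own exposure gave 0.39 ± 0.16 in offspring of exposed fathers and -0.61 ± 0.20 in the others, and the fitted difference of effects was 0.98 ± 0.24 (limma adjusted p 0.487). For ENSGACG00000010950 the effects were -0.66 ± 0.26 and 0.76 ± 0.21, and their difference -1.47 ± 0.34 (limma adjusted p 0.487). ENSGACG00000009779 had 0.16 ± 0.14 and -0.95 ± 0.25, and ENSGACG00000009511 -0.84 ± 0.24 and 0.56 ± 0.23, with the same adjusted p. Without neither replicate 3 the differences of effects were 0.81 ± 0.22 for ENSGACG00000001007, -1.42 ± 0.36 for ENSGACG00000010950, 0.93 ± 0.27 for ENSGACG00000009779 and -1.33 ± 0.37 for ENSGACG00000009511, and their limma adjusted p went from 0.487 to 0.999. The sex term is shared over all 29 libraries in the test of the difference, so it need not equal the gap between the separate fits.

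Another pair of genes, which an earlier analysis of this table called between fish with both exposures and fish with neither, were read here for own exposure alone. ENSGACG00000020611 averaged 2.41 ± 0.40 log2 CPM in the exposed offspring of exposed fathers (SD, n = 7) and 2.28 ± 0.41 in the unexposed (SD, n = 8). In offspring of unexposed fathers it averaged 2.07 ± 0.28 in exposed fish (SD, n = 9) and 1.12 ± 0.57 in unexposed fish (SD, n = 5). Own exposure gave 0.17 ± 0.13 in offspring of exposed fathers, with a 95% interval from -0.11 to 0.45, and 1.097 ± 0.28 in the other families. ENSGACG00000005494 averaged 2.63 ± 0.40 and 2.39 ± 0.32 in the same order, then 2.19 ± 0.24 and 1.36 ± 0.49. Its difference was 0.16 ± 0.19 in offspring of exposed fathers and 0.71 ± 0.23 in the others. Neither replicate 3 was the lowest of the fish with no exposure for both genes, at 0.16 for ENSGACG00000020611 against 1.16 to 1.68 in the 4 others, and at 0.74 for ENSGACG00000005494 against 0.93 to 1.85. Without it the difference in the other families was 0.83 ± 0.21 and 0.53 ± 0.20. The test of the difference of effects gave an adjusted p of 0.487 for each gene in limma, and 0.999 without that library. Because the genes were found on these libraries, their levels describe that earlier call and do not support it.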

How the data were processed

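One whole-brain library per fish was analysed for 29 sticklebacks, 15 of them offspring of exposed fathers. The authors deposited one table of log2 CPM. Per the submitters' processing notes, the tools were edgeR, HTSeq 0.6.1, TopHat2 2.0.8 and CASAVA 1.8.2; the build they name, NCBIM37, is a mouse build, and no coordinates are used here. Whole reads were recovered from the deposited log2 values (100% within 0.01 reads); 0 reads are listed as -6.77.

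The 16660 genes over 0 log2 CPM in 5 or more of the 29 libraries were tested in limma 3.58.1 (R 4.3.3, statmod 1.5.0), limma-trend with father as a fixed block and sex, Benjamini-Hochberg adjustment and a threshold of 0.05. The fit of females alone had father as a random block and no sex term. The block comes from the fathers named in the labels. Replicate numbers were given in accession order and pair nothing. Differences are exposed minus unexposed. Nothing states separate rearing tanks, so p-values measure the spread between these fish. Library titles gave the sequencing lane. Only the fit for own exposure was tried on simulated reads, which held no effect of father or sex.

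At most 2 genes per direction and comparison are named, by smallest p where none was called or by largest change where some were, with a mean of at least 1 log2 CPM, and 2 by the smallest of the 4 family differences. The genes called without both replicate 3 fall outside this rule. Members, lists and tests were chosen with earlier results of these data known. Alternatives covered the block, sex term, lane, filter, normalisation, library weights, limma-voom and each fish or father left out.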

Additional observations from a re-analysis of the deposited data

Results flagged for a closer look

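Among 60 sets of values examined, 8 held a fish at the edge of its group with a gap to the next fish that was large relative to the group's range; about 1 set in 20 does so by chance. Both replicate 5 had 55155451 reads, against 2244609 to 19835515 in the other exposed fish, and paternal only replicate 8 had 26896865, against 4316374 to 13464189 in the other unexposed fish. Both replicate 3 stood apart for 4 genes: low for ENSGACG00000009205 (2.50 log2 CPM, others 3.07 to 3.43), and high for ENSGACG00000003794 (8.13, others 6.18 to 6.71), ENSGACG00000008514 (3.57, others 1.13 to 1.97) and ENSGACG00000014069 (3.90, others 2.22 to 2.94). The last 3 genes were named because leaving out this fish changed their call, so its distance there was part of their choice. Paternal only replicate 3 was high for ENSGACG00000014069 (4.50, others 2.61 to 3.43), and paternal only replicate 5 low for ENSGACG00000002143 (-1.01, others 3.07 to 6.35). ENSGACG00000009205 and ENSGACG00000002143 were named for small p-values among females, and the fish that stood apart for them were males. The rate of 1 in 20 need not hold for genes chosen in these ways. It need not hold for reads either, which were examined here as counts and not on the log2 scale.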

How the results depend on the processing

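The count of genes called for own exposure was 0 in the fit reported and under each alternative except 1: leaving out one fish at a time gave 0 to 5 genes, with 5 without both replicate 3, and leaving out one father at a time gave 0. The count at an unadjusted p under 0.05, 737 as reported, was 470 with father as a random replicate block, 401 with no replicate block, 332 with lane as a term and the random block, 1455 with library weights and 322 with group means over all 29 libraries and the random block. Leaving out one fish gave 609 to 1078, and one father 621 to 853. It was 545 with sex as labelled, 505 without a sex term and 602 with limma-voom. The test of the difference of effects called 0 genes under every alternative run. ENSGACG00000020611 changed sign, to -0.028 in females and to -0.019 with lane as a term, both within the error of its difference. The 4 leading genes kept their direction in all 40 alternatives, with a lowest adjusted p of 0.244, but not their size: the difference ran from 0.32 with lane as a term to 0.75 for ENSGACG00000006719, from 0.26 in females to 1.02 for ENSGACG00000015516, from -0.68 to -0.36 in females for ENSGACG00000013300 and from -0.58 to -0.37 for ENSGACG00000011652. Some of these alternatives could not move a gene's difference: a changed gene filter, other settings of the variance estimate, and leaving out M9 or its fish. Leaving out the lone unexposed fish of M15 or of M43 gave the same differences as leaving out that father. The 4 genes were also chosen by their p-values in the fit reported. More genes were lower than higher past 2-fold in all 41 settings counted, which include the fit reported and these repeats. Depth limits genes of few reads, sex and exposure are partly tied within families, and 2 of the 4 families have a single unexposed fish.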
